A study of Mus musculus with 12 samples.

Results

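The transcriptional cyclin-dependent kinase genes Cdk9, Cdk7, Cdk12 and Cdk13, the cyclin genes Ccnt1, Ccnt2, Ccnk and Ccnh, and the P-TEFb inhibitor gene Hexim1 are described here across the treatments of a mouse cancer cell line. These 9 genes were chosen by name from the 12584 genes of the table, and all 9 were among the 10101 genes that reached at least 1 FPKM in at least 3 libraries. FPKM, fragments per kilobase of gene scaled for sequencing depth, is a level corrected for gene length. RNA was sequenced from CT26 cells, a colon carcinoma line derived from the mouse, as 12 libraries. Cells had been treated for 24 h with NP-D@MP (libraries N10, N11 and N12), NP-D@M (N7, N8 and N9), NP@M (N4, N5 and N6) or PBS (N1, N2 and N3). The abbreviations are not spelled out in the labels, while the series title speaks of a nanodrug with an engineered cancer cell membrane that targets CDKs and of PD-L1 antibody immunotherapy. Libraries whose name holds a D are called libraries with D below.

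Transcription by RNA polymerase II is paced by cyclin-dependent kinases that phosphorylate the tail of its largest subunit. Cdk7, with its cyclin (encoded by Ccnh) and the assembly factor encoded by Mnat1, is the kinase of the general factor TFIIH, acts at initiation and also activates other CDKs. Cdk9 with a T-type cyclin forms P-TEFb, which releases paused polymerase, and Hexim1 with the 7SK RNA holds part of P-TEFb inactive. Cdk12 and Cdk13 pair with cyclin K and act during elongation, and Cdk12 is known for its part in the expression of long DNA repair genes.

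The table held 12.8 to 14.9 M reads (mega-reads) per library with D and 13.9 to 15.7 M per library without D. The divisor the authors used in place of these totals, recovered from the steps of the values, was 7.13 to 8.40 M with D and 28.2 to 31.1 M without D. For a gene of 1 kb, a read was therefore worth 0.119 to 0.140 FPKM with D and 0.0322 to 0.0355 FPKM without D, so low levels with D rest on few reads. Dividing by the reads in the table instead, called table-read scaling below, shifted the median log2 change of all tested genes. The shift was -1.29 for NP-D@MP vs PBS and -1.26 for NP-D@M vs NP@M. Folds and log2 changes below are in the authors' scaling unless another setting is named, and their sizes depend on that choice. Directions that turn under table-read scaling are given with each gene, and ratios between 2 members within a library do not depend on it. Mitochondrial genes held 7.41 to 14.4% of the reads with D and 3.30 to 4.20% without D. Of 8 colon epithelial markers only Krt18 and Krt20 were among the genes of the table. Their summed level was 80.0 to 91.1 FPKM with NP-D@MP, 73.0 to 87.7 with NP-D@M, 15.1 to 16.4 with NP@M and 15.2 to 18.7 with PBS. The higher sum is that of Krt20, which averaged 80.4, 78.0, 8.67 and 9.27 FPKM in this order of groups. Krt20 stayed higher with table-read scaling, at log2 1.18 for NP-D@MP vs PBS and 1.29 for NP-D@M vs NP@M. Krt18 went the other way, with averages of 4.19, 4.46, 6.89 and 8.16 FPKM. Among leukocyte markers 3 of 6 were listed, with summed levels of 13.8 to 21.3, 9.31 to 18.3, 2.62 to 3.25 and 2.57 to 2.85 FPKM in the same order of groups. Cd68 was the highest of them. Ptprc, the pan-leukocyte marker, averaged only 0.0147 FPKM with NP-D@MP and 0.0226 with NP-D@M. It was listed at 0 in all 6 libraries without D, and the lowest library of each group with D was also at 0. Under table-read scaling, Lyz2 changed by log2 0.033 for NP-D@MP vs PBS (limma adjusted p = 0.880). Cd68 changed by 0.76 there (limma adjusted p = 0.00464). For NP-D@M vs NP@M the changes were 0.051 for Lyz2 (limma adjusted p = 0.813) and 0.44 for Cd68 (limma adjusted p = 0.0664). The part of these differences in the results below was not tested. In bulk RNA, fewer cells of a kind and less RNA per cell cannot be told apart.

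The 9 genes lie on 6 chromosomes of the GRCm38 build, and the coordinates in the table equal those of the GENCODE M21 annotation. Cdk9 spans chromosome 2, 32705784 to 32713076, on the minus strand, and is the most compact of the kinase genes at 7.29 kb. Cdk7 (chromosome 13, 100702631 to 100730939, minus strand) and Ccnh (chromosome 13, 85189408 to 85223469, plus strand) lie on the same chromosome as Cdk13 (17710315 to 17805097, minus strand). Cdk12 (98203059 to 98278504) and Hexim1 (103116231 to 103119725) both lie on the plus strand of chromosome 11. Ccnt1 is on chromosome 15 (98538689 to 98570923, minus strand), Ccnt2 on chromosome 1 (127774164 to 127808061, plus strand) and Ccnk on chromosome 12 (108179579 to 108203359, plus strand). Hexim1 has a single exon, against up to 15 in a transcript of Cdk13. Summed exon lengths were 3042 bases for Ccnk, 3105 for Ccnh, 3495 for Hexim1, 3706 for Cdk7, 4611 for Cdk9, 9157 for Ccnt1, 11730 for Cdk12, 12345 for Ccnt2 and 13456 for Cdk13. With strand use in counting not given, reads of opposite genes cannot be told apart: 8.82% of the exonic length of Ccnt1 lies within the antisense gene 9330020H09Rik and 8.34% of that of Ccnh within Rasa1. Other genes hold 7.50% of the 50-base words of Ccnt1, 1.69% of those of Cdk9, 1.15% of those of Cdk12 and at most 0.0318% of those of the other members.

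Promoter sequences are shown for the 4 members with the longest stretch upstream of both the RefSeq and the GENCODE start, all of which were called lower with D below. Each is printed 5′ to 3′ on the strand of the gene (RefSeq, GRCm38.p6), and capitals mark matches to the searched letters on either strand. Those of Cdk7 lie at chr13:100730943-100731192, of Cdk13 at chr13:17805098-17805347, of Ccnt2 at chr1:127773914-127774163 and of Hexim1 at chr11:103116075-103116230.
Cdk7: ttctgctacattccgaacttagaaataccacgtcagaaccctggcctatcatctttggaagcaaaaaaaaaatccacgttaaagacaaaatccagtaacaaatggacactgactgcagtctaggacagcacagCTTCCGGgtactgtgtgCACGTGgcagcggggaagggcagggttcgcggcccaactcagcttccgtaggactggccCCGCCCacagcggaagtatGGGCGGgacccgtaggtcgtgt
Cdk13: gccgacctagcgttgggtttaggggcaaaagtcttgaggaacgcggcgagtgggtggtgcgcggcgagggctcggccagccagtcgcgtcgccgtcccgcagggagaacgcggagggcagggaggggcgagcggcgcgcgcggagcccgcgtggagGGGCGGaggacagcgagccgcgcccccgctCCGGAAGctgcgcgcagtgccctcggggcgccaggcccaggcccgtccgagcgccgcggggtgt
Ccnt2: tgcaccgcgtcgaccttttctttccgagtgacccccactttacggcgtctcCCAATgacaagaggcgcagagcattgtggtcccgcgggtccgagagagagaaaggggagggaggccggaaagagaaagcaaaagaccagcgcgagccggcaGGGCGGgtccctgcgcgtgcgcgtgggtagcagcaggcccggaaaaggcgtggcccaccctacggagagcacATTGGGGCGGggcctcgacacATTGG
Hexim1: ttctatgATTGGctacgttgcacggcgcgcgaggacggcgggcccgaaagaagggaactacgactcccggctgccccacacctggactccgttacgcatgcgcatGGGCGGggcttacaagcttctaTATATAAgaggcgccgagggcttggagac
In windows from 250 bases before to 50 bases after the RefSeq starts, which 8 members have, the GC box letters GGGCGG occurred in 8 of 8, against 35.7% of all 32851 promoters. The TATA box letters TATATAA occurred in Hexim1 alone (3.24% of all promoters) and the E-box letters CACGTG in Cdk7 alone (7.15%). The ETS letters CCGGAAG were in 4 of 8 windows, those of Cdk9, Cdk13, Cdk7 and Ccnt1 (8.86% of all), and CCAAT in 4, those of Ccnt2, Cdk9, Hexim1 and Ccnk (37.4% of all). The GC box and CCAAT letters overlap in Ccnt2, and a match describes letters, not a bound site.

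**Figure D1:**
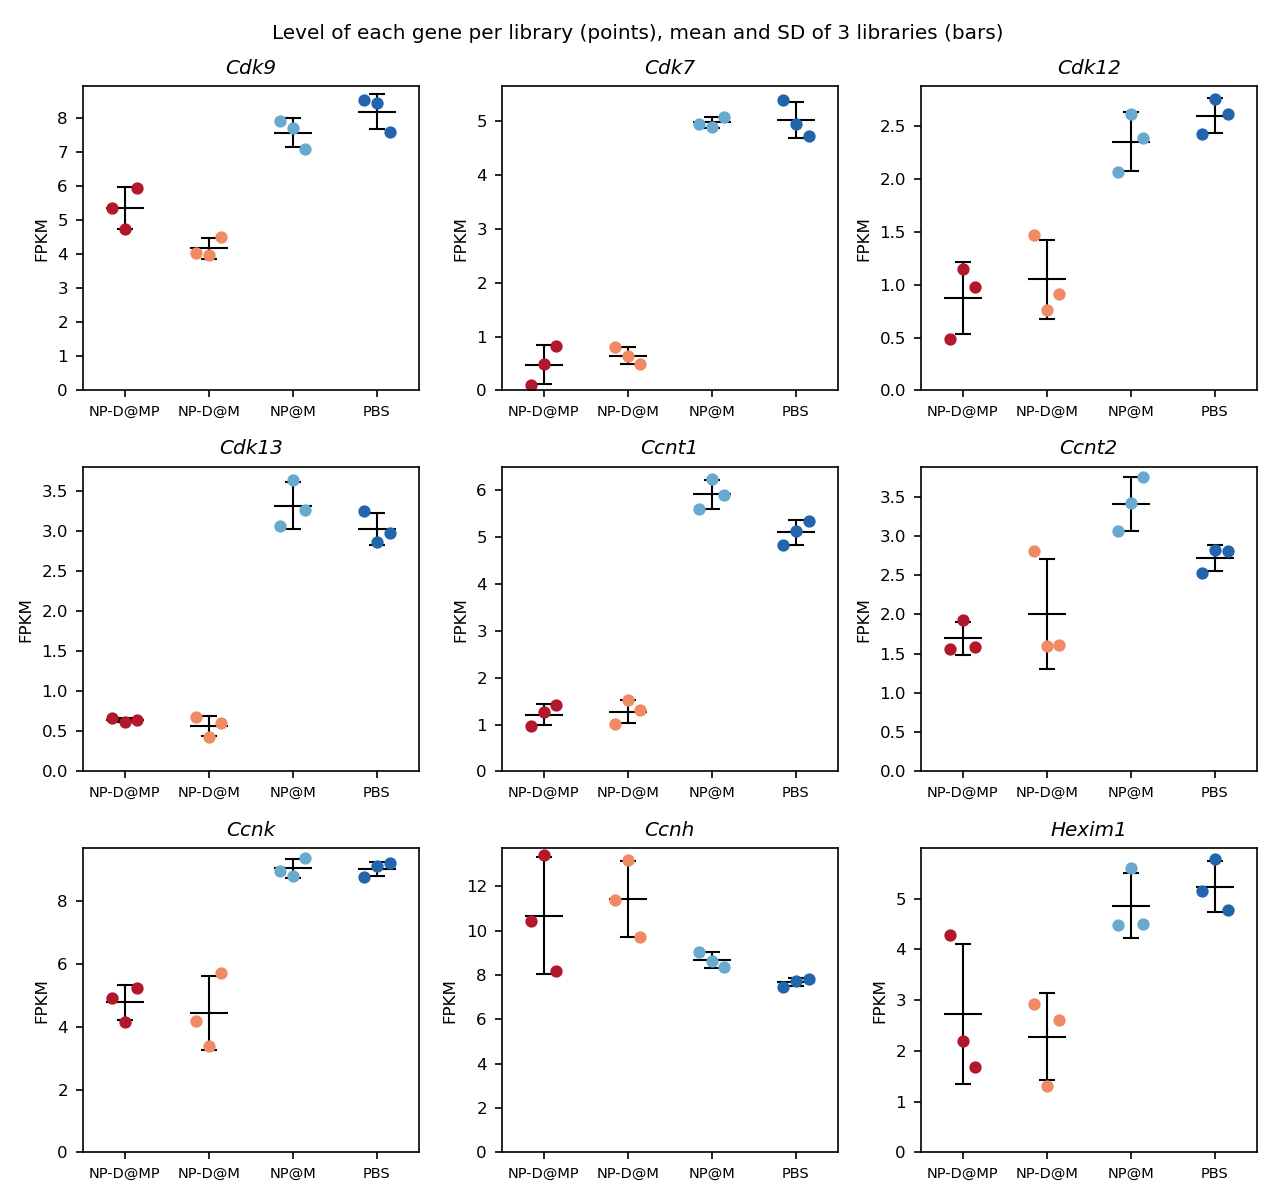
Level in FPKM (vertical axis, linear and different in each panel) of the 9 genes in each of the 12 libraries, by treatment, with the mean and SD of 3 libraries. Cdk7 is below 1 FPKM in all 6 libraries with D and at 4.73 or more in all 6 without D, while Ccnh is at 8.17 or more with D.

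The kinase genes stood lower with D in NP-D@MP vs PBS as well as in NP-D@M vs NP@M, comparisons that share no library. By the names of the treatments, NP-D@M and NP@M differ by D alone, whereas NP-D@MP differs from PBS in every component, so D cannot be told apart from the others there. Cdk7, the TFIIH kinase gene, was at 0.108, 0.498 and 0.832 FPKM in NP-D@MP libraries N10, N11 and N12, against 5.40, 4.95 and 4.73 FPKM in PBS libraries N1, N2 and N3. In NP-D@M libraries N7, N8 and N9 it was at 0.804, 0.632 and 0.493 FPKM, against 4.96, 4.90 and 5.09 FPKM in NP@M libraries N4, N5 and N6. No library with D came near any without D, and library N10 was the lowest of all with 3 reads, where the PBS libraries had 494 to 614. Mean Cdk7 level was 10.5-fold lower in NP-D@MP vs PBS (log2 change of FPKM + 1 of -2.05, SE 0.15, limma Benjamini-Hochberg adjusted p = 1.35e-07). It was 7.75-fold lower in NP-D@M vs NP@M (-1.87, SE 0.15, adjusted p = 3.12e-07 by the same limma fit). Falls of Cdk7 under table-read scaling were 38.9-fold and 27.6-fold in the same order. In the authors' scaling its change lay at percentile 4.9 and percentile 7.7 of all tested genes from the lowest. It was the lowest of the 9 members in both comparisons.

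Cdk13, a cyclin K kinase gene, was at 0.666, 0.617 and 0.646 FPKM with NP-D@MP (N10 to N12), against 3.25, 2.86 and 2.97 FPKM with PBS (N1 to N3). With NP-D@M (N7 to N9) it was at 0.673, 0.430 and 0.606 FPKM, against 3.06, 3.64 and 3.26 FPKM with NP@M (N4 to N6). Libraries with D were all below the rest and lay close together. It was 4.71-fold lower in NP-D@MP vs PBS (log2 change -1.29, SE 0.09, limma adjusted p = 7.53e-08) and 5.82-fold lower in NP-D@M vs NP@M (-1.46, SE 0.09, limma adjusted p = 2.61e-08).

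Its relative Cdk12 changed less and spread more. Cdk12 was at 0.490, 1.15 and 0.980 FPKM in NP-D@MP libraries, against 2.43, 2.76 and 2.61 FPKM in PBS libraries. NP-D@M libraries had 1.47, 0.764 and 0.914 FPKM, against 2.06, 2.61 and 2.38 FPKM in NP@M libraries. The groups did not overlap, but the level in N7 was well above that in N10 although both had D. Cdk12 fell 2.98-fold in NP-D@MP vs PBS (log2 change -0.96, SE 0.15, limma adjusted p = 0.000103) and 2.24-fold in NP-D@M vs NP@M (-0.72, SE 0.15, limma adjusted p = 0.000921). After removal of a trend on gene length these calls ended (adjusted p = 0.0580 and 0.464 in limma), and the call in NP-D@M vs NP@M also ended with quantile normalization (limma adjusted p = 0.471).

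Cdk9, the P-TEFb kinase gene, was the least changed kinase gene in fold. It stood at 5.37, 4.75 and 5.96 FPKM in NP-D@MP libraries N10, N11 and N12, against 8.53, 8.44 and 7.59 FPKM in PBS libraries. In NP-D@M libraries it stood at 4.03, 3.98 and 4.52 FPKM, against 7.92, 7.70 and 7.11 FPKM in NP@M libraries. Every library with D lay below every library without D. The fold was 1.53 lower in NP-D@MP vs PBS (log2 change -0.53, SE 0.10, limma adjusted p = 0.000256) and 1.82 lower in NP-D@M vs NP@M (-0.73, SE 0.10, limma adjusted p = 1.96e-05). Falls of Cdk9 under table-read scaling were 5.66-fold and 6.48-fold in the same order, so their size depends on the scaling. The call in NP-D@MP vs PBS ended after removal of the length trend (limma adjusted p = 0.145).

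Cyclin genes did not move as a group. Ccnt1, a T-type cyclin gene of P-TEFb, was at 0.964, 1.27 and 1.41 FPKM with NP-D@MP, against 4.83, 5.14 and 5.36 FPKM with PBS. NP-D@M gave 1.01, 1.52 and 1.30 FPKM, against 5.61, 6.24 and 5.90 FPKM with NP@M. Every level with D was far below every level without D. Ccnt1 was 4.21-fold lower in NP-D@MP vs PBS (log2 change -1.47, SE 0.11, limma adjusted p = 1.14e-07) and 4.62-fold lower in NP-D@M vs NP@M (-1.61, SE 0.11, limma adjusted p = 5.12e-08). Its antisense neighbour 9330020H09Rik was at 0.687 FPKM with NP-D@MP, 0.585 with NP-D@M, 0.0618 with NP@M and 0.248 with PBS on average.

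Ccnt2, the other T-type cyclin gene, was at 1.56, 1.93 and 1.59 FPKM in NP-D@MP libraries, against 2.53, 2.81 and 2.81 FPKM in PBS libraries. It was at 2.81, 1.60 and 1.61 FPKM in NP-D@M libraries, against 3.07, 3.42 and 3.75 FPKM in NP@M libraries. The NP-D@M library N7 lay as high as PBS libraries but below the NP@M libraries. Ccnt2 was called 1.60-fold lower in NP-D@MP vs PBS (log2 change -0.47, SE 0.14, limma adjusted p = 0.00866) and 1.70-fold lower in NP-D@M vs NP@M (-0.58, SE 0.14, limma adjusted p = 0.00245). Its direction was not stable: the log2 changes were 0.17 and 0.034 after removal of the length trend, and 0.091 and -0.059 with quantile normalization.

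Ccnk, the cyclin gene of Cdk12 and Cdk13, was at 4.92, 4.16 and 5.25 FPKM with NP-D@MP, against 8.77, 9.12 and 9.21 FPKM with PBS. Levels were 4.19, 3.40 and 5.73 FPKM with NP-D@M, against 8.97, 8.81 and 9.40 FPKM with NP@M. No library with D reached the lowest without it. The falls were 1.89-fold in NP-D@MP vs PBS (log2 change -0.80, SE 0.14, limma adjusted p = 0.000175) and 2.04-fold in NP-D@M vs NP@M (-0.91, SE 0.14, limma adjusted p = 6.16e-05).

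Ccnh, which encodes the cyclin of Cdk7, was the exception. It stood at 10.4, 13.4 and 8.17 FPKM in NP-D@MP libraries, against 7.46, 7.72 and 7.82 FPKM in PBS libraries. It stood at 11.4, 13.2 and 9.73 FPKM in NP-D@M libraries, against 9.03, 8.63 and 8.34 FPKM in NP@M libraries. In the authors' scaling the libraries with D lay above their counterparts without overlap, although the NP-D@MP library N12 lay below all 3 NP@M libraries. Ccnh was 1.39-fold higher in NP-D@MP vs PBS (log2 change 0.41, SE 0.15, limma adjusted p = 0.0240) and 1.32-fold higher in NP-D@M vs NP@M (0.35, SE 0.15, limma adjusted p = 0.0439). With table-read scaling the log2 changes turned to -1.29 (limma adjusted p = 2.71e-06) and -1.31 (limma adjusted p = 2.31e-06). The call also ended without NP-D@MP library N11 or PBS library N1 or N2, and in the other comparison without N7, N8, N4, N5 or N6. Rasa1, on the opposite strand, averaged 2.95 FPKM with NP-D@MP, 3.21 with NP-D@M, 6.07 with NP@M and 5.18 with PBS.

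Hexim1, the P-TEFb inhibitor gene, was at 4.29, 2.19 and 1.68 FPKM in NP-D@MP libraries, against 5.15, 5.78 and 4.78 FPKM in PBS libraries. It was at 2.93, 1.30 and 2.61 FPKM in NP-D@M libraries, against 4.49, 5.61 and 4.49 FPKM in NP@M libraries. The libraries with D were the lower ones but spread widely, with 112 reads in N10 and 33 in N8. Hexim1 was 1.93-fold lower in NP-D@MP vs PBS (log2 change -0.80, SE 0.25, limma adjusted p = 0.00887) and 2.13-fold lower in NP-D@M vs NP@M (-0.87, SE 0.25, limma adjusted p = 0.00577). Neither call held with quantile normalization (limma adjusted p = 0.0694 and 0.0611), and that in NP-D@MP vs PBS also ended after removal of the length trend (limma adjusted p = 0.0580).

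In count, 8 of the 9 genes were called lower in NP-D@MP vs PBS, where 47.3% of all tested genes were, and 1 was called higher, where 43.2% were. The same 8 genes were lower and Ccnh higher in NP-D@M vs NP@M, with 47.7% of all tested genes called lower and 41.8% higher. The 2 groups did not overlap for 9 of 9 members in either comparison, against 93.0% and 87.3% of all genes, so the lack of overlap says little of the members. Of all genes, 48.3% lay wholly below and 44.7% wholly above in NP-D@MP vs PBS, and 46.6% and 40.7% did so for NP-D@M vs NP@M. The 9 members had a median log2 change of -0.80 in NP-D@MP vs PBS and -0.87 in NP-D@M vs NP@M, beside -0.16 and -0.19 for all tested genes. With table-read scaling these medians were -2.25 and -2.27, beside -1.46 and -1.46 for all genes. All 9 members were then called lower, beside 70.7% and 70.5% of all genes, with 17.5% called higher in both. Table-read falls in NP-D@MP vs PBS and NP-D@M vs NP@M were 11.1-fold and 7.98-fold for Cdk12 and 17.5-fold and 20.8-fold for Cdk13. For Ccnt1, Ccnt2, Ccnk and Hexim1 they were 15.6 and 16.5, 5.95 and 6.06, 7.01 and 7.30, and 7.13 and 7.61. In both comparisons and under both scalings, 8 of 9 members lay below the median of all genes. The exception was Ccnh, at percentiles 57.1 and 57.6 in the authors' scaling. Ccnt2 also lay above that median after removal of the length trend (0.17 and 0.034, beside -0.0019 and -0.053) and with quantile normalization.

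**Figure D2:**
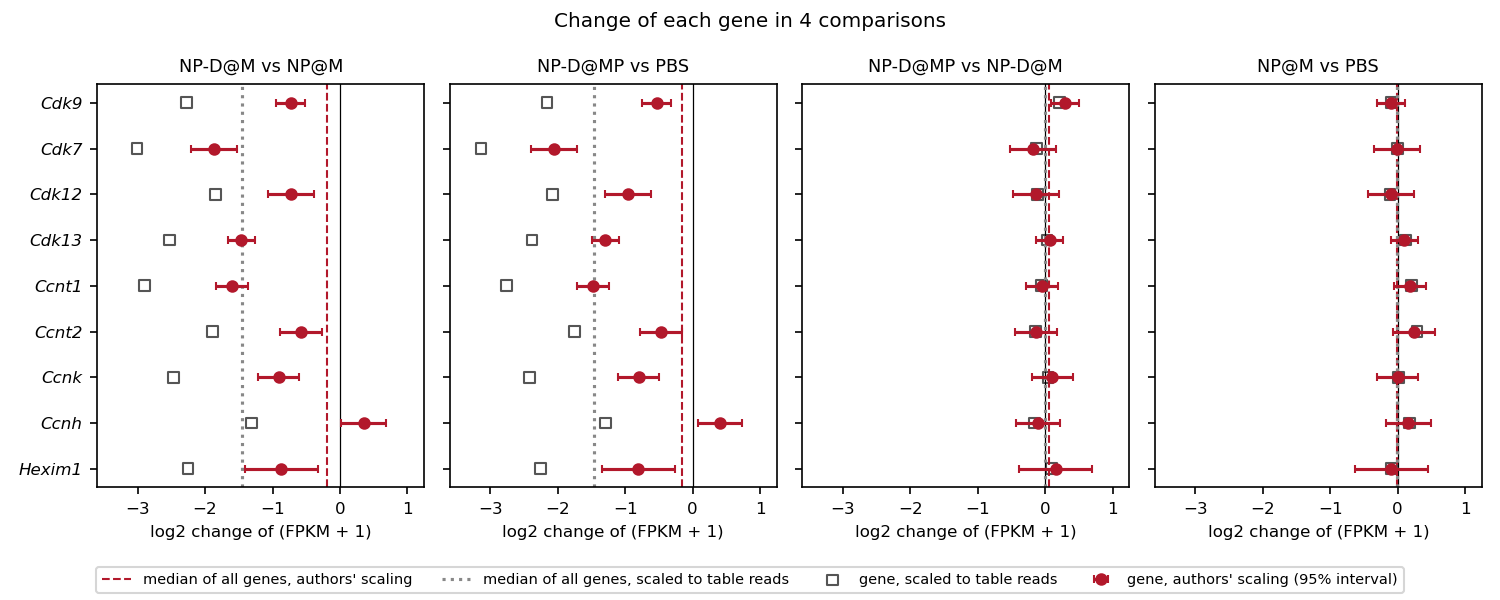
Log2 change of each gene (horizontal axis) in 4 comparisons, in the authors' scaling with 95% intervals from limma (red circles) and with table-read scaling (grey squares), with vertical lines at the medians of all tested genes. Ccnh lies right of 0 with D in the authors' scaling and left of 0 with table-read scaling, while Cdk7 and Ccnt1 lie farthest left under both.

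The order of levels among the members changed with D. Ccnh ranked first of the 9 in all 6 libraries with D (8.17 to 13.4 FPKM, median 10.9), and ranked 1 to 3 in the 6 without D (7.46 to 9.03, median 8.08). Cdk9 (3.98 to 5.96 FPKM, median 4.63) and Ccnk (3.40 to 5.73, median 4.56) held ranks 2 and 3 with D and could not be separated there. Without D, Ccnk (8.77 to 9.40, median 9.05) and Cdk9 (7.11 to 8.53, median 7.81) did not overlap. Cdk7 ranked 8 or 9 with D and 4 to 6 without D, where its levels of 4.73 to 5.40 FPKM overlapped those of Hexim1 (4.49 to 5.78) and Ccnt1 (4.83 to 6.24). Cdk12 was last in all 6 libraries without D (2.06 to 2.76 FPKM), although its range overlapped that of Ccnt2 (2.53 to 3.75), and it ranked 6 to 8 with D. Ccnt2 ranked 7 or 8 without D, below Ccnt1, and 4 or 5 with D, above it.

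Ratios of FPKM within a library set each subunit against its partner and do not depend on how libraries were scaled. They may depend on a trend on gene length, and no ratio was computed with that trend removed. They were compared between the 6 libraries with D and the 6 without D by exact two-sided permutation tests of the mean log2 ratio, adjusted by Benjamini-Hochberg over the 8 ratios computed. With 6 against 6 the smallest possible p is 0.00216, while 3 against 3 cannot go below 0.10. Of the 8 ratios, 5 had an adjusted p under 0.05. The groups pool both treatments with D and both without it. How many ratios of other gene pairs would pass was not computed, so this count has no background share. Of all single genes, 93.0% did not overlap between groups in NP-D@MP vs PBS and 87.3% in NP-D@M vs NP@M. A separated ratio is therefore not read as particular to these pairs.

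For the TFIIH pair, Ccnh stood at 9.82 to 96.3 times the level of Cdk7 with D (median 20.3), against 1.38 to 1.82 times without D (median 1.65). The groups were far apart, and the mean log2 ratio was 3.82 higher with D, or 14.1-fold (exact permutation p = 0.00216, adjusted p = 0.00433). The highest ratio belonged to N10 with its 3 Cdk7 reads, and without that library the difference was 3.41.

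For P-TEFb, Ccnt1 stood at 0.180 to 0.382 times the level of Cdk9 with D (median 0.259), against 0.566 to 0.831 times without D (median 0.707). No library overlapped, with a log2 difference of -1.42 (exact permutation p = 0.00216, adjusted p = 0.00433). Ccnt2 stood at 0.267 to 0.697 times Cdk9 with D, against 0.297 to 0.528 times without D, a log2 difference of -0.01 (exact permutation p = 0.955). The T-type cyclins thus changed places: the ratio of Ccnt2 to Ccnt1 was 1.05 to 2.77 with D (median 1.38), against 0.524 to 0.636 without D (median 0.547). Ccnt2 exceeded Ccnt1 in 6 of 6 libraries with D and in 0 of 6 without D, a 2.65-fold difference (log2 1.41, exact permutation p = 0.00216, adjusted p = 0.00433). Hexim1 stood at 0.283 to 0.799 times Cdk9 with D, against 0.566 to 0.729 times without D, which was not separated by the test (log2 difference -0.37, exact permutation p = 0.195, adjusted p = 0.223).

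For the cyclin K kinases, Ccnk stood at 6.23 to 9.44 times Cdk13 with D (median 7.65), against 2.42 to 3.19 times without D (median 2.91). The groups did not overlap, and the ratio was 2.65-fold higher with D (log2 1.40, exact permutation p = 0.00216, adjusted p = 0.00433). The exon lengths differ, at 3042 bases for Ccnk and 13456 for Cdk13, and the part of gene length in this ratio was not tested. Against Cdk12 the same cyclin stood at 2.85 to 10.04 times with D and 3.31 to 4.35 times without D, so the range with D enclosed the other. That log2 difference of 0.44 had an exact permutation p of 0.126 (adjusted p = 0.167), and without N7 it was 0.61 with an adjusted p of 0.0144 by the same permutation test. Cdk12 relative to Cdk13 was 0.736 to 2.19 with D (median 1.65), against 0.674 to 0.964 without D (median 0.739). The ranges overlapped through N10, and the ratio was 1.95-fold higher with D (log2 0.96, exact permutation p = 0.00866, adjusted p = 0.0139).

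**Figure D3:**
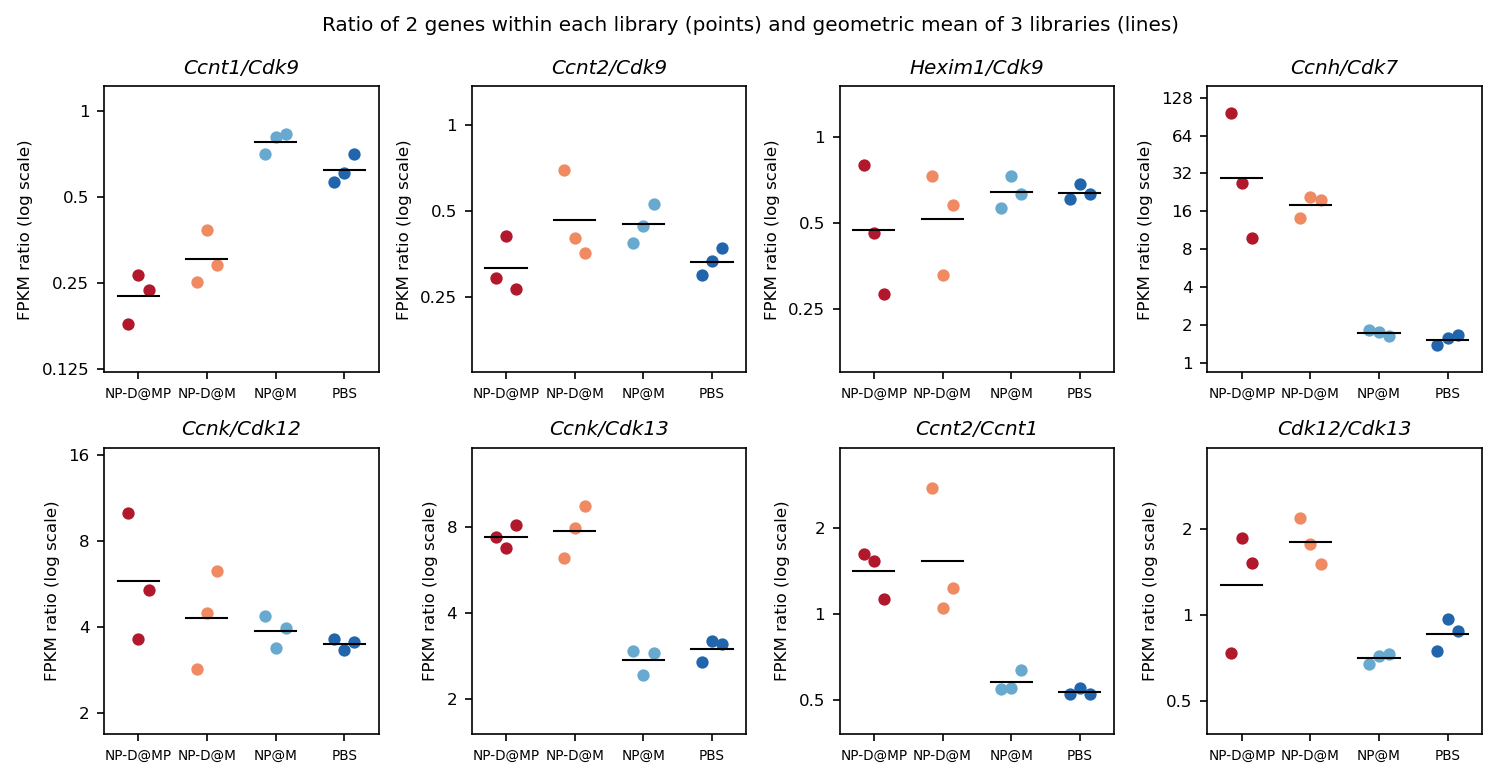
Ratio of FPKM between 2 members within each library (vertical axis, log2-spaced), by treatment, as points with the geometric mean of 3 libraries as a line. Ccnh/Cdk7, Ccnt1/Cdk9, Ccnk/Cdk13 and Ccnt2/Ccnt1 separate all 6 libraries with D from all 6 without D, whereas Ccnt2/Cdk9, Hexim1/Cdk9, Ccnk/Cdk12 and Cdk12/Cdk13 overlap.

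The treatments that differ without a change in D gave no call among the members. In NP@M vs PBS, limma and limma voom each called 0 of 9, with 0.0% of all tested genes called higher and 0.0099% lower in limma. Before adjustment 0 members passed 0.05 in limma, beside 1092 of all 10101 tested genes. Log2 changes ran from -0.10 to 0.24, adjusted p from 0.522 to 0.999 in limma, and the 95% intervals all lay within -0.63 and 0.56. The groups did not overlap for 3 of 9 members, Ccnt1, Ccnt2 and Ccnh, each higher with NP@M, against 28.4% of all genes (12.4% wholly above and 16.0% wholly below). In NP-D@MP vs NP-D@M, limma and limma voom each called 0 of 9, with 0.0396% of all tested genes called higher and 0.0099% lower in limma. Before adjustment 1 member passed 0.05 in limma, beside 1713 of all 10101 tested genes, so the member does not stand out. Cdk9 was that member: its 3 NP-D@MP libraries (4.75 to 5.96 FPKM) lay above its 3 NP-D@M libraries (3.98 to 4.52), 1.28-fold higher. Its log2 change of 0.29 had a 95% interval of 0.08 to 0.51 and a limma adjusted p of 0.218, so it is not a call. Without NP-D@M library N9, limma called 969 of all genes higher and 290 lower, with 0 of the 9 members among them. The other 8 members overlapped between these treatments, where 14.2% of all genes did not (9.57% wholly above and 4.6% wholly below).

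Genes around these kinases were counted in 6 lists of 59 genes, of which 51 were tested. Of these, 34 were called lower and 15 higher in NP-D@MP vs PBS, and 34 lower and 14 higher in NP-D@M vs NP@M. Beside these stand 47.3% lower and 43.2% higher of all tested genes, and 47.7% lower and 41.8% higher. With table-read scaling the counts were 46 lower and 2 higher, and 46 lower and 4 higher, beside 70.7% and 70.5% of all tested genes lower and 17.5% higher in both. The counts per list below are to be read against the same shares. Comparing NP-D@MP with NP-D@M, and NP@M with PBS, limma called 0 of the 51, with 8 and 7 at an unadjusted p under 0.05. Beside these stand 1713 and 1092 of all 10101 tested genes.

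Among 9 tested genes that control P-TEFb or form the super elongation complex, 7 were lower and 2 higher in NP-D@M vs NP@M (with table-read scaling 8 and 0). Mllt1, a super elongation complex gene, was at 10.1 ± 0.837 FPKM with NP-D@M, against 3.04 ± 0.229 with NP@M (SD, n = 3 each). Its log2 change of 1.45 (limma adjusted p = 5.50e-08) became -0.09 with table-read scaling. Partners of Hexim1, chosen after their values were seen, moved apart. Mepce, the 7SK capping enzyme gene, was at 1.57 ± 0.376 FPKM with NP-D@M, against 9.52 ± 0.478 with NP@M (log2 -2.04, limma adjusted p = 5.22e-07). Larp7, the 7SK binding protein gene, was at 19.0 ± 5.11 FPKM with NP-D@M, against 8.61 ± 0.842 with NP@M (log2 1.03, limma adjusted p = 0.000115, and -0.67 with table-read scaling).

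Of 7 tested TFIIH genes including Mnat1, 5 were lower and 2 higher in NP-D@M vs NP@M (with table-read scaling 6 and 1). Mnat1, the third subunit beside Cdk7 and Ccnh and named here after its values were seen, was at 1.95 ± 0.597 FPKM with NP-D@M, against 3.45 ± 0.173 with NP@M. Its log2 change of -0.62 (SE 0.18, limma adjusted p = 0.00794) lay between those of Cdk7 and Ccnh. Gtf2h5, the smallest TFIIH core subunit gene, was at 76.9 ± 6.93 FPKM with NP-D@M, against 7.72 ± 1.39 with NP@M, and stayed higher under both scalings (log2 3.17, and 1.44 with table-read scaling). Gtf2h2, another core subunit gene, was at 0.352 ± 0.198 FPKM with NP-D@M, against 2.22 ± 0.437 with NP@M (log2 -1.25, limma adjusted p = 3.05e-06).

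The targets and neighbours of these kinases also went in both directions. All 6 called of 7 tested genes for the largest polymerase subunit and the phosphatases of its tail were lower in NP-D@M vs NP@M (with table-read scaling 7 of 7). Polr2a, which encodes the subunit that carries the phosphorylated tail, was at 2.36, 2.22 and 2.77 FPKM with NP-D@M, against 18.7, 19.3 and 18.5 FPKM with NP@M (log2 -2.52, limma adjusted p = 5.31e-10). Of 15 pausing and elongation factors, 9 were lower and 5 higher (13 and 2 with table-read scaling). Ctr9, a PAF complex gene, was at 0.235 ± 0.171 FPKM with NP-D@M, against 5.46 ± 0.0640 with NP@M. The histone chaperone gene Ssrp1 was at 354 ± 12.8 FPKM, against 73.9 ± 2.88. Its log2 change of 2.24 became 0.42 with table-read scaling. Of 9 genes of the Mediator kinase module and other transcription CDKs, 5 were lower and 3 higher (8 and 1 with table-read scaling). There Cdk8, the Mediator kinase gene, was at 0.827 ± 0.197 FPKM with NP-D@M, against 5.13 ± 0.793 with NP@M. Cdk10 was at 11.5 ± 2.47 FPKM, against 2.27 ± 0.632, and its log2 change of 1.93 became 0.43 with table-read scaling. In NP-D@MP vs PBS that scaling gave 0.26 for Cdk10 (limma adjusted p = 0.157), which is not a call. Of 4 DNA repair genes known to need Cdk12 and cyclin K, 2 were lower and 2 higher (4 and 0 with table-read scaling). Brca1 was at 0.385 ± 0.175 FPKM with NP-D@M, against 2.79 ± 0.374 with NP@M. Fanci was at 4.85 ± 0.285 FPKM, against 1.78 ± 0.0826, with a log2 change of 1.07 that became -0.29 with table-read scaling.

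The genes whose profile over the 12 libraries was most like that of Cdk9 were Nsun4, Pxdn and Slc52a2, by the root mean square difference of centred log2(FPKM + 1). These differences were 0.0710, 0.0853 and 0.0913 on the log2 scale. The added 1 FPKM shrinks the folds of low genes, so likeness on this scale is not an equal fold. Nsun4 averaged 0.440 FPKM with NP-D@MP, 0.232 with NP-D@M, 1.06 with NP@M and 1.15 with PBS. Cdk9 averaged 5.36, 4.17, 7.58 and 8.19 FPKM in the same order. The nearest member was Ccnk at rank 271 of all tested genes (0.177), while Cdk7 was at rank 5719 (0.707). The T-type cyclin partners of Cdk9 ranked 1731 (Ccnt2) and 4042 (Ccnt1).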

How the data were processed

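The authors deposited FPKM values for 12584 genes, with GRCm38 coordinates. Per the submitters' processing notes, the aligner was Bowtie 0.12.2 and the build mm8. The counter, strand setting and origin of the library sizes are not given in the sources used here, and the labels' protocol speaks of retinas, of which 0 of 6 marker genes were listed. Groups came from the sample titles. Separate cultures are not stated, so p-values cover only the spread between libraries, which may be technical. FPKM times gene length gave whole multiples of a step per library (relative tolerance 1e-06), from which reads were recovered. The test was limma 3.58.1 (R 4.3.3) on log2(FPKM + 1), in a single fit of 12 libraries over 10101 genes with Benjamini-Hochberg adjustment and calls under 0.05. Folds are ratios of mean FPKM, and n = 3 per group. The members and lists were chosen with earlier results of these data known. Besides the members, the text names the called list gene with the smallest p in each direction (NP-D@M vs NP@M), plus the 3 genes nearest to Cdk9; 1 gene that this rule names is not reported here. Alternatives were other scalings, filters, pseudocounts, thresholds and fits, removal of a length trend, and leaving out each library.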

Additional observations from a re-analysis of the deposited data

How the results depend on the processing

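No paired analysis was possible because the titles number the libraries N1 to N12 in a single series, so no number is shared between groups. In NP-D@MP vs PBS and NP-D@M vs NP@M, the calls of Cdk7, Cdk13, Ccnt1 and Ccnk held under every alternative in which they were tested. Ccnh reversed to -1.29 and -1.31 with table-read scaling, and to -0.013 in NP-D@M vs NP@M with quantile normalization. Ccnt2 reversed to 0.17 and 0.034 after removal of the length trend, and to 0.091 in NP-D@MP vs PBS with quantile normalization. The causes were not tested. The count of members called higher, 1 in each comparison, became 0 with median-ratio scaling, quantile normalization, table-read scaling or an adjusted p under 0.01, and in NP-D@M vs NP@M also with a pseudocount of 0.1. Under these settings 17.5 to 42.2% of all tested genes were called higher. Leaving out a library gave 0 to 1 members called higher. The count called lower, 8, became 5 in NP-D@M vs NP@M with quantile normalization, 4 in NP-D@MP vs PBS after removal of the length trend, and 2 in both with a mean of at least 5 FPKM, which left 3 members to test. It was 8 without any single library. The difference in Ccnk/Cdk12 was 0.24 to 0.61 with a library left out, and passed the test without N7. With 1 FPKM added to each level the same 5 ratios passed, with smaller differences: 2.34 for Ccnh/Cdk7, -0.91 for Ccnt1/Cdk9, 0.52 for Ccnk/Cdk13, 1.02 for Ccnt2/Ccnt1 and 0.54 for Cdk12/Cdk13. Cdk7 rests on 3 to 25 reads in libraries with D, so differences among those libraries are not resolved.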
